A study of Mus musculus with 6 samples.

Results

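A set of 10 genes of the ATF4 stress response and of amino acid supply was followed in mouse neurospheres that carried a conditional knockout of Ash2l (KO) and in wild-type neurospheres (WT). They are Atf4, Ddit3, Trib3, Chac1, Asns, Sesn2, Slc7a11, Slc7a5, Slc3a2 and Aldh18a1, taken by gene name from the 54532 gene rows of the deposited table. The 10 names matched 11 rows, because Ddit3 has a second entry of 105 bases (ENSMUSG00000116429) that held no reads, and 1 row of each gene passed the filter on low counts. RNA was sequenced from primary neurospheres, floating colonies of neural progenitors, taken from C57BL/6 embryos at E14.5 and grown for 6 days with EGF and bFGF (20 ng/ml each), 2% B27 and 0.2% BSA. The groups were 3 libraries of Ash2l cKO spheres (KO 1, KO 2 and KO 3) and 3 of WT spheres (WT 3, WT 6 and WT 7). The knockout was driven by D6-Cre, a transgene active in the dorsal forebrain, so cells in which Cre was not active keep the gene. The labels name both the dorsal cortex and the walls of the lateral ventricles as the source. Since no label gives separate embryos or cultures for the libraries, each p-value covers only the spread among the 6 libraries, part of which may be technical.

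ATF4 is the transcription factor of the integrated stress response. Kinases that sense lack of amino acids, misfolded protein in the endoplasmic reticulum, viral RNA or lack of haem phosphorylate eIF2α, which slows most translation but raises that of ATF4 through short reading frames upstream of its own. The level of Atf4 RNA is therefore not a measure of ATF4 protein. ATF4 raises enzymes and transporters that supply amino acids, and under lasting stress the factor CHOP (Ddit3), the pseudokinase TRIB3 and the glutathione-degrading enzyme CHAC1. It binds DNA with C/EBP partners at a composite element whose core reads TGATGNAAN.

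That element was searched for on both strands in the stretch from 250 bases before to 50 after the start of each gene, in promoters from RefSeq (GRCm38.p6). It was present in 4 of the 9 listed promoters of these genes and in 3.95% of all 32851 promoters of this length. Slc7a5 was not in the promoter table. The stretches around the matches are shown as a description, and whether ATF4 binds or acts at them was not tested. Capitals mark the element, read from right to left in Chac1, Trib3 and the second copy of Slc7a11, where it lies on the opposite strand. The coordinates are chr6:7693210-7693289 (minus strand) for Asns, chr2:119351013-119351092 (plus strand) for Chac1, chr3:50443614-50443693 (minus strand) for Slc7a11 and chr2:152344029-152344057 (minus strand) for Trib3.
Asns: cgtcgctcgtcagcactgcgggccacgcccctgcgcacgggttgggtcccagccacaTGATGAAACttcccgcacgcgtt
Chac1: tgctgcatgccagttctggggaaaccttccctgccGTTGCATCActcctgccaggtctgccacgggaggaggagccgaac
Slc7a11: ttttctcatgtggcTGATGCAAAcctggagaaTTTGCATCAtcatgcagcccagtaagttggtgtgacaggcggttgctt
Trib3: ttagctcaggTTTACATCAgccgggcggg
The element of Asns ended 14 bases before the start, the copies of Slc7a11 ended 57 and 39 bases before it, that of Chac1 185 bases before it, and that of Trib3 began at base 14 after it. These starts are those of RefSeq and need not match the gene spans given further on. By those spans the element of Asns would lie after the start and that of Trib3 before it. The promoter of Atf4 held no TGATGNAAN. It is shown from 122 bases before the start (chr15:80255062-80255183, plus strand) with 2 CCAAT boxes, the binding site of NF-Y, in capitals.
Atf4: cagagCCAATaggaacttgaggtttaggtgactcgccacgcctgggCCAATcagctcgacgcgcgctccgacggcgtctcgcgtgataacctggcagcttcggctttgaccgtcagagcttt
CCAAT, searched on both strands, was found in 5 of the 9 promoters (Chac1, Slc7a11, Sesn2, Ddit3 and Atf4) and in 37.4% of all promoters. CCACG, a part of the endoplasmic reticulum stress element, was found in 6 of the 9 and in 32.8% of all. No copy of 1 motif overlapped a copy of another, and only in Aldh18a1 did copies of CCACG on opposite strands overlap each other. The log2 fold changes of KO over WT had a median of 0.13 over the 305 tested genes with TGATGNAAN in a promoter. Over all 11512 tested genes with a listed promoter the median was 0.0037. The 305 genes include Asns, Chac1, Slc7a11 and Trib3. Of the 305 genes 15.7% were called higher in KO and 13.1% lower (adjusted p under 0.05, edgeR). Of the 4931 tested genes with CCAAT 16.4% were called higher and 16.3% lower. Among all 11512 tested genes with a listed promoter 16.7% were called lower, a larger share than in either set. The share called higher was smaller there than in either set. Whether these shares differ was not tested.

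Total counts ran from 16764480 to 21007543 in the KO libraries and from 17575641 to 21983659 in the WT libraries, at which 3 reads are 0.136 to 0.179 CPM, the count scaled to the size of the library. On the first principal component of log2 CPM, which held 69.9% of the variance, the KO libraries lay at -76.8, -62.6 and -53.5, and WT 3 at 25.5 lay nearer to them than WT 6 at 81.7 and WT 7 at 85.7. Ash2l, a subunit shared by the COMPASS histone methyltransferases, was at 95.9 ± 8.41 CPM in KO and 113 ± 3.55 CPM in WT (SD, n = 3 each), with a log2 fold change of -0.24 that did not pass (adjusted p = 0.119, edgeR). Which exons were deleted is not given in the labels, and reads from the others count towards this value. The markers of neural progenitors were present in both groups, with a summed level of 10 radial glia markers of 1691 to 2784 FPKM (counts scaled to gene length and library total) in KO and 1991 to 2520 FPKM in WT.

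Of the 10 genes 6 rose in KO. They were Atf4 itself, its targets Asns, Chac1, Sesn2 and Aldh18a1, and the transporter gene Slc7a5, while Slc3a2, Trib3, Slc7a11 and Ddit3 did not pass the threshold. None fell. Across all 16606 tested genes 29% were called, 13.5% higher in KO and 15.5% lower, at an adjusted p of 0.05 in edgeR's quasi-likelihood test. Over the 10 genes the log2 fold changes ran from -0.14 to 1.93 with a median of 0.68, against a median of 0.0019 over all tested genes. The groups did not overlap in the 6 genes that passed and overlapped in the other 4, where 48.6% of all tested genes had groups that did not overlap. The count of 6 became 3 without KO 2 and 3 without WT 6, when Atf4, Asns and Sesn2 were left, and 7 without KO 1, when Slc3a2 joined. Without WT 3 it was 6, without WT 7 it was 4, and without KO 3 it was 5. Calls over all genes moved as well, from 4812 with all libraries to 2889 without KO 1, 2516 without KO 2 and 4266 without KO 3. They were 6641 without WT 3, 2178 without WT 6 and 2449 without WT 7. The counts among the 10 genes are to be read beside these. In bulk RNA a change in the number of cells of a type and a change in RNA per cell cannot be told apart.

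**Figure D1:**
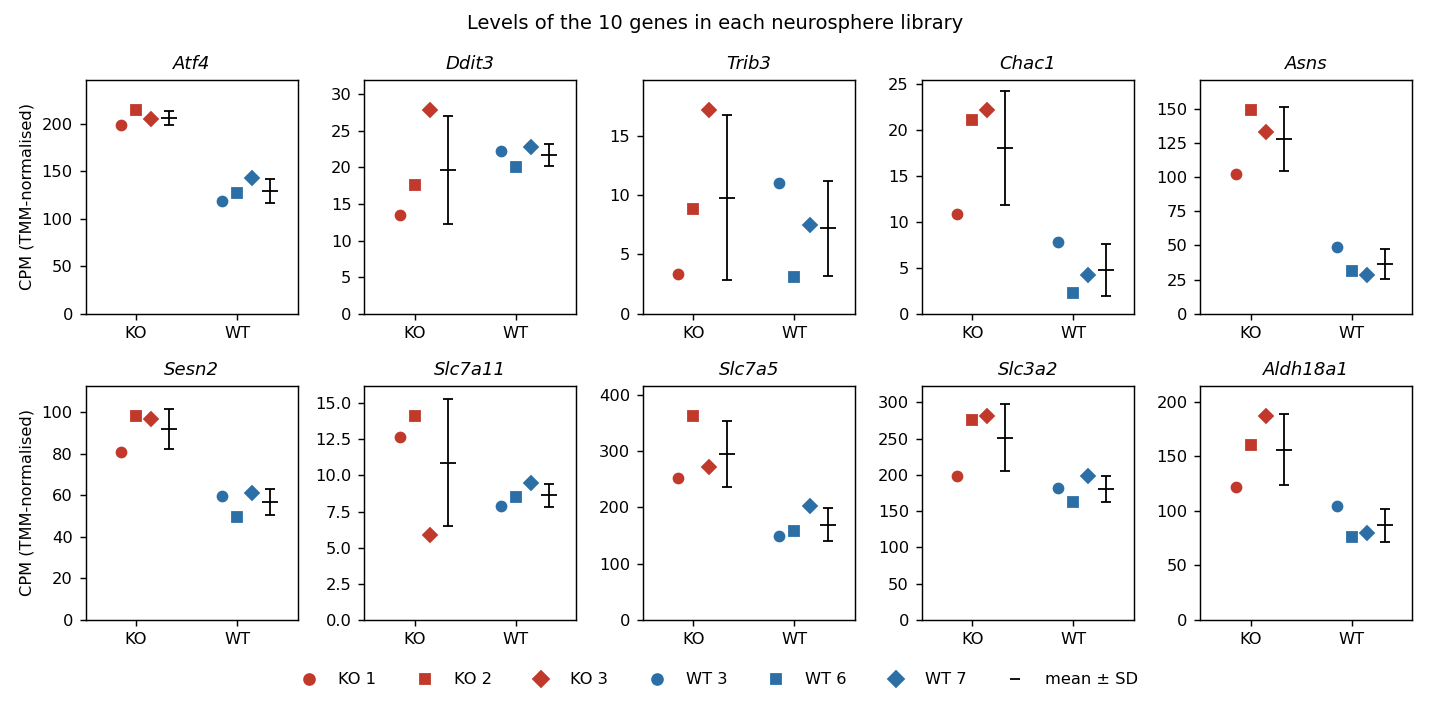
CPM of each of the 10 genes (vertical axes, each from 0) in the 3 KO libraries (red, left) and the 3 WT libraries (blue, right), with the mean and SD beside them. Atf4, Asns, Sesn2, Slc7a5, Aldh18a1 and Chac1 had every KO library above every WT library, while Ddit3, Trib3, Slc7a11 and Slc3a2 had groups that overlap.

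Among the 3 regulators, Atf4 rose and Ddit3 and Trib3 did not pass. Atf4 (chromosome 15, 80255184 to 80257541 on mm10, plus strand) had 199, 214 and 205 CPM in KO 1, KO 2 and KO 3, against 118, 127 and 143 CPM in WT 3, WT 6 and WT 7. The KO libraries lay close together, with a coefficient of variation of 3.74%, and all of them lay above the WT libraries. The log2 fold change was 0.67 (SE 0.11, adjusted p = 0.00553, edgeR), or 1.59-fold, and the call held whichever library was left out (0.61 to 0.74).

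Ddit3 (chromosome 10, 127290774 to 127296288, plus strand) encodes CHOP, a factor of the C/EBP family that ATF4 is known to induce and that is linked to cell death under lasting stress. It had 13.4, 17.6 and 27.8 CPM in KO 1, KO 2 and KO 3, against 22.3, 20.0 and 22.8 CPM in WT 3, WT 6 and WT 7. KO 1 and KO 2 lay below all WT libraries and KO 3 above them. The log2 fold change was -0.14 (SE 0.27, adjusted p = 0.705, edgeR). Its last 68 bases overlap Mars, the methionyl-tRNA synthetase gene on the opposite strand, whose mean count was 586% of that of Ddit3. Whether counting used strand is not given in the labels, and how many reads the genes share was not measured.

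Trib3 (chromosome 2, 152337422 to 152344032, minus strand) encodes a pseudokinase that is known as a target of ATF4 and CHOP and that binds ATF4 and AKT. It had 3.34, 8.80 and 17.2 CPM in KO 1, KO 2 and KO 3, against 11.1, 3.06 and 7.48 CPM in WT 3, WT 6 and WT 7. The range within each group was wider than the difference between the group means of 9.77 CPM in KO and 7.20 CPM in WT. Coefficients of variation were 71.3% in KO and 55.6% in WT, with 58 to 363 reads a library. The log2 fold change of 0.45 had an SE of 0.65 (adjusted p = 0.624, edgeR).

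Among the 10 genes the largest log2 fold changes were those of the enzymes Chac1 and Asns. Asns (chromosome 6, 7675169 to 7693254, minus strand) encodes asparagine synthetase, which makes asparagine from aspartate and glutamine and is a standard readout of ATF4 activity. It had 103, 149 and 133 CPM in KO 1, KO 2 and KO 3, against 48.6, 31.3 and 28.6 CPM in WT 3, WT 6 and WT 7. Every KO library held more than 2 times the CPM of the highest WT library, WT 3. Asns had a log2 fold change of 1.83 (SE 0.24, adjusted p = 0.00326, edgeR), or 3.55-fold, and 2.10 without WT 3, and the call held whichever library was left out.

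Chac1 (chromosome 2, 119351229 to 119354381, plus strand) encodes a gamma-glutamylcyclotransferase that breaks down glutathione in the cytosol. It had 10.8, 21.1 and 22.1 CPM in KO 1, KO 2 and KO 3, from 188, 391 and 468 reads, against 7.80, 2.26 and 4.21 CPM in WT 3, WT 6 and WT 7, from 139, 45 and 89 reads. The groups did not overlap, although the lowest KO library, KO 1, and the highest WT library, WT 3, lay close to each other. Chac1 had a log2 fold change of 1.93 (SE 0.49, adjusted p = 0.0266, edgeR), or 3.80-fold. The call ended without KO 2, KO 3, WT 6 or WT 7 (log2 fold changes of 1.80, 1.77, 1.58 and 1.84, adjusted p of 0.0860, 0.0665, 0.0647 and 0.0866), and the value was 2.47 without WT 3.

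Sesn2 (chromosome 4, 132492032 to 132510501, minus strand) encodes sestrin 2, a leucine sensor that holds back the growth kinase complex mTORC1 when leucine is scarce. It had 80.8, 97.9 and 96.9 CPM in KO 1, KO 2 and KO 3, against 59.6, 49.6 and 61.2 CPM in WT 3, WT 6 and WT 7. The KO libraries all lay above those of WT, and a log2 fold change of 0.69 (SE 0.13, adjusted p = 0.00962, edgeR) kept its call whichever library was left out.

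Aldh18a1 (chromosome 19, 40550257 to 40588463, minus strand) encodes the enzyme that starts the synthesis of proline and ornithine from glutamate. It had 122, 160 and 186 CPM in KO 1, KO 2 and KO 3, against 104, 76.1 and 79.9 CPM in WT 3, WT 6 and WT 7. The groups did not overlap, although KO 1 and WT 3 lay closer to each other than to the rest of their groups. Its log2 fold change was 0.85 (SE 0.19, adjusted p = 0.0184, edgeR), and the call ended without KO 2, WT 6 or WT 7 (adjusted p of 0.0652, 0.0758 and 0.0704).

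Of the 3 transporter genes Slc7a5 rose. SLC7A5 (LAT1) brings leucine and other large neutral amino acids into the cell, SLC7A11 (xCT) exchanges glutamate for cystine, and both work as light chains bound to the heavy chain SLC3A2 (CD98). Slc7a5 (chromosome 8, 121881150 to 121907694, minus strand) had 252, 362 and 272 CPM in KO 1, KO 2 and KO 3, against 149, 157 and 202 CPM in WT 3, WT 6 and WT 7. All KO libraries lay above all WT libraries, with a log2 fold change of 0.80 (SE 0.18, adjusted p = 0.0194, edgeR) that lost its call without KO 2 or WT 6 (adjusted p of 0.0561 and 0.0808).

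The heavy chain gene Slc3a2 (chromosome 19, 8706882 to 8723369, minus strand) had 198, 276 and 281 CPM in KO 1, KO 2 and KO 3, against 182, 163 and 198 CPM in WT 3, WT 6 and WT 7. KO 1 lay at the level of WT 7, and the other KO libraries lay above all WT libraries. The log2 fold change of 0.48 (SE 0.16) did not pass (adjusted p = 0.0656, edgeR). Its adjusted p was 0.0441 when only library totals were used, 0.0467 and 0.0480 in limma on log2(FPKM + 1) and log2(FPKM + 0.1), and 0.0234 in limma-voom. Without KO 1 it passed in edgeR at 0.65 (adjusted p = 0.0236).

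Slc7a11 (chromosome 3, 49892526 to 50443614, minus strand) had 12.7, 14.1 and 5.86 CPM in KO 1, KO 2 and KO 3, against 7.85, 8.54 and 9.47 CPM in WT 3, WT 6 and WT 7. KO 1 and KO 2 lay above all WT libraries and KO 3 below them. Its log2 fold change was 0.33 (SE 0.34, adjusted p = 0.472, edgeR), and 0.65 (adjusted p = 0.0663) without KO 3.

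**Figure D2:**
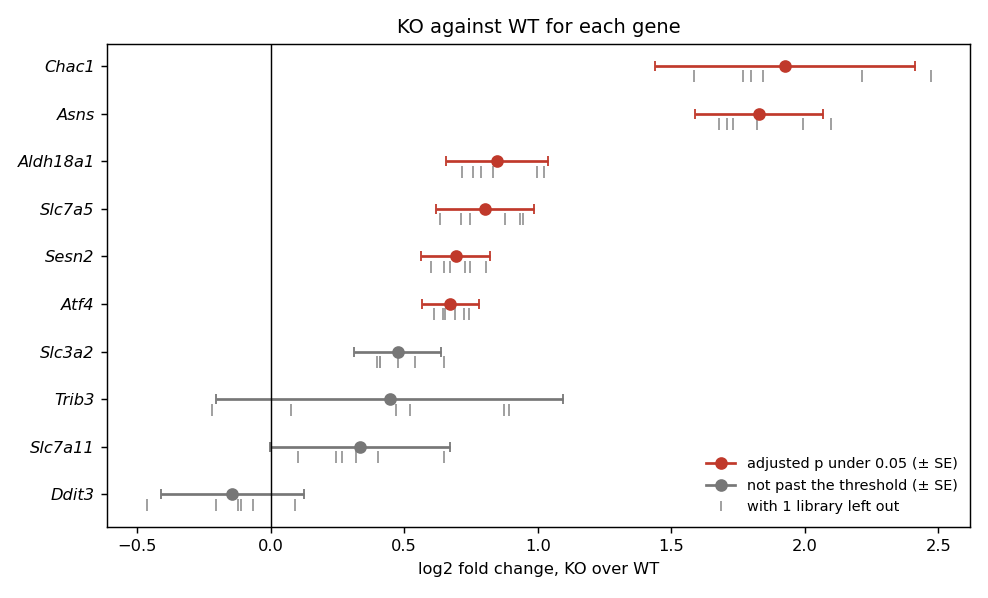
Log2 fold change of KO over WT for each gene (horizontal axis) with its SE, in red where the adjusted p was under 0.05, and grey ticks for the values with 1 library left out. Chac1 at 1.93 and Asns at 1.83 stood apart from Aldh18a1, Slc7a5, Sesn2 and Atf4 at 0.67 to 0.85, and the ticks of Ddit3 and Trib3 lie on both sides of 0.

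The KO libraries differed among themselves in a way shared by most of the 10 genes. KO 1 was the lowest KO library in 9 of the 10 genes, all but Slc7a11, where KO 3 was lowest. KO 1 also had the highest summed level of 8 meningeal and fibroblast markers, at 93.7 FPKM, against 6.34 and 11.99 FPKM in KO 2 and KO 3 and 4.64 to 6.11 FPKM in WT, and of 8 microglia markers, at 10.7 FPKM, against 1.76 and 1.70 FPKM in KO 2 and KO 3 and 0.877 to 3.78 FPKM in WT. Among the KO libraries KO 1 had the highest sum of neuronal markers (1101 FPKM, against 749 and 824 in KO 2 and KO 3). KO 1 had the lowest sums of oligodendrocyte lineage markers (478, against 877 and 673) and radial glia markers (1691, against 2784 and 1712). The endothelial and pericyte sum was lowest in KO 1 too (11, against 12.2 and 13.1). Its cycling and astrocyte sums lay between those of KO 2 and KO 3. No meningeal, fibroblast or microglia marker was at 0 in all libraries. The part of any list in the values of KO 1 was not tested. In WT, WT 3 was the highest library in Asns, Chac1, Trib3 and Aldh18a1 and the lowest in Atf4, Slc7a5 and Slc7a11, and WT 6 was the lowest in 6 genes. How often each library was lowest or highest over all tested genes was not counted. These orders, that of KO 1 included, may therefore not be particular to the 10 genes.

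Levels were set against each other on the FPKM scale, which corrects for gene length. In KO the order of mean levels was Atf4 at 88.9 ± 2.89 FPKM, Slc7a5 at 81.2 ± 15.8, Slc3a2 at 72.5 ± 12.5, Asns at 47.8 ± 8.38, Aldh18a1 at 39.0 ± 7.59, Sesn2 at 26.9 ± 2.51, Ddit3 at 11.6 ± 4.24, Chac1 at 11.2 ± 3.77, Trib3 at 4.66 ± 3.27 and Slc7a11 at 0.799 ± 0.327 (SD, n = 3). In WT it was Atf4 at 53.5 ± 3.99 FPKM, Slc3a2 at 50.1 ± 5.23, Slc7a5 at 44.6 ± 6.77, Aldh18a1 at 20.9 ± 4.38, Sesn2 at 16.003 ± 2.01, Asns at 13.01 ± 4.38, Ddit3 at 12.4 ± 1.05, Trib3 at 3.35 ± 1.95, Chac1 at 2.88 ± 1.79 and Slc7a11 at 0.605 ± 0.0431 (SD, n = 3). Asns thus stood above Aldh18a1 and Sesn2 in mean level in KO and below both in WT. Neighbours in the order whose libraries overlapped were Atf4 and Slc7a5, Slc7a5 and Slc3a2, Asns and Aldh18a1, Ddit3 and Chac1, and Chac1 and Trib3 in KO. In WT they were Atf4 and Slc3a2, Slc3a2 and Slc7a5, Sesn2 and Asns, Asns and Ddit3, and Trib3 and Chac1. The table gives Slc7a11 a length of 13922 bases, the longest of the 10, and a shorter transcript would have a higher FPKM.

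Ratios within a library compare a gene with Atf4 at the same depth. Asns stood at 0.445, 0.601 and 0.560 of the FPKM of Atf4 in KO 1, KO 2 and KO 3, against 0.354, 0.213 and 0.173 in WT 3, WT 6 and WT 7. Ddit3 stood at 0.0930, 0.113 and 0.187 of Atf4 in KO 1, KO 2 and KO 3, against 0.259, 0.217 and 0.220 in WT 3, WT 6 and WT 7. The groups did not overlap in either ratio, which was higher in KO for Asns and lower in KO for Ddit3. Atf4 itself was higher in every KO library than in every WT library, while Ddit3 alone had groups that overlap. A gene without a difference between the groups would thus tend to have a lower ratio to Atf4 in KO. How many genes have such a ratio without overlap was not counted. With 3 libraries a group the smallest two-sided p of an exact permutation test is 0.1, so neither ratio was tested.

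The ratio of Chac1 to Atf4 averaged 0.125 ± 0.0412 in KO and 0.0544 ± 0.0361 in WT (SD, n = 3 each), and that of Trib3 to Atf4 0.0525 ± 0.0377 in KO and 0.0629 ± 0.0386 in WT, and in both the groups overlapped. The light chain gene Slc7a5 stood at 1.21, 1.25 and 0.924 of the FPKM of its heavy chain gene Slc3a2 in KO 1, KO 2 and KO 3, against 0.779, 0.921 and 0.971 in WT 3, WT 6 and WT 7, where KO 3 lay within the WT range. Slc7a11 stood at 0.0162, 0.0130 and 0.00530 of Slc3a2 in KO 1, KO 2 and KO 3, against 0.0110, 0.0133 and 0.0121 in WT 3, WT 6 and WT 7.

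**Figure D3:**
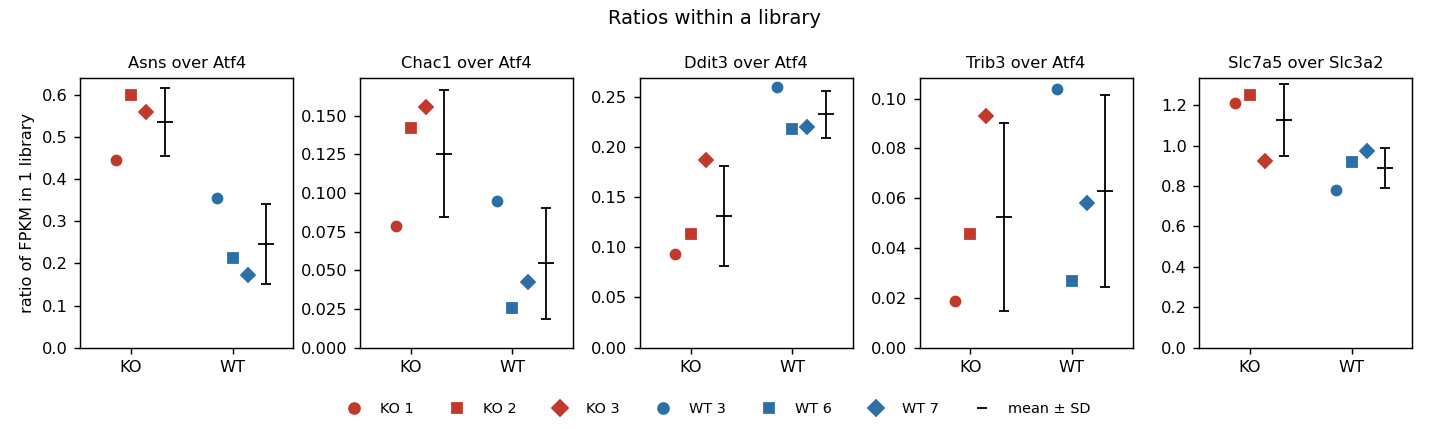
Ratio of the FPKM of a pair of genes within each library (vertical axes, each from 0) in KO (red, left) and WT (blue, right), with the mean and SD. The KO libraries lie above the WT libraries for Asns over Atf4 and below them for Ddit3 over Atf4, and the groups overlap for Chac1 or Trib3 over Atf4 and for Slc7a5 over Slc3a2.

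The genes whose log2 CPM followed that of Atf4 most closely over the 6 libraries, among 12461 protein-coding genes with a mean of at least 2 CPM, were Clic4, Wbp11, Hat1, Ddx27 and Slc25a39, with Pearson's r of 0.997 to 0.999. These values share the libraries and the difference between the groups and are a description. Among the 10 genes r with Atf4 was 0.957 for Slc7a5, 0.941 for Sesn2, 0.893 for Asns, 0.835 for Slc3a2, 0.826 for Aldh18a1, 0.815 for Chac1, 0.336 for Slc7a11, 0.194 for Trib3 and -0.273 for Ddit3. Many other genes followed Atf4 more closely than these. Among the protein-coding genes, with Atf4 itself as 1, Slc7a5 ranked 372, Sesn2 586, Asns 1252 and Slc3a2 1904. Aldh18a1 ranked 1985, Chac1 2089, Slc7a11 5260, Trib3 5767 and Ddit3 7155.

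Of 18 other tested targets and partners of ATF4 and CHOP, 4 rose and none fell, and their median log2 fold change was 0.57. Among all tested genes 13.5% were called higher and 15.5% lower, with a median of 0.0019, which is the background for the counts of each list. These were 2240 genes higher and 2572 lower with all libraries. Over all genes 1027 were called higher and 1151 lower without WT 6, and 3500 and 3141 without WT 3. List counts with 1 library left out are to be read beside such shifts. Genes said to have risen or fallen passed in edgeR at an adjusted p under 0.05. Eif4ebp1, which holds back cap-dependent translation, was at 76.7 ± 19.3 CPM in KO and 23.0 ± 6.99 CPM in WT (SD, n = 3 each; log2 fold change 1.74, SE 0.28). Tnfrsf10b, the death receptor gene known as a CHOP target, rose by 1.49 (SE 0.28), the stress factor Atf3 by 0.999 (SE 0.25) and the stress cytokine Gdf15 by 2.38 (SE 0.63). The calls of Eif4ebp1 and Tnfrsf10b held whichever library was left out, that of Atf3 held only without WT 3, and that of Gdf15 ended without KO 2, KO 3, WT 6 or WT 7 and stood at 3.27 without WT 3. The count of 4 was 5 without KO 1, 8 without WT 3, and 2 without KO 2, KO 3, WT 6 or WT 7. Gpt2 (-0.82, SE 0.26), named after its value was seen, did not pass with all libraries (adjusted p = 0.0510, edgeR). It was called lower only without WT 3.

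Upstream of ATF4 translation stand the eIF2 genes. Of 19 genes of the eIF2 kinases, phosphatases and exchange factor, 3 rose and 1 fell, with a median of 0.22. Eif2s1, which encodes the phosphorylated subunit eIF2α, rose by 0.99 (SE 0.12) and Eif2s2, its beta subunit, by 0.74 (SE 0.10), while Impact, an inhibitor of the amino acid sensing kinase GCN2, fell by 0.82 (SE 0.14). These 3 calls held whichever library was left out, and that of the exchange factor gene Eif2b3 (0.48, SE 0.15) was left only without KO 3. None of the kinase genes Eif2ak1, Eif2ak2, Eif2ak3 and Eif2ak4, singled out after their values were seen, passed with all libraries (log2 fold changes of -0.33, -0.051, 0.29 and -0.20). With 1 library left out, Eif2ak1 was called lower only without WT 3 (adjusted p = 0.0411, edgeR), and the other kinase genes were never called. The count of genes that fell was 3 without WT 3.

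Of 20 genes of the chaperone branches of the unfolded protein response 7 rose and 2 fell, with a median of 0.15. The disulfide isomerase gene Pdia6 rose by 0.59 (SE 0.09), Edem1, of the degradation of misfolded glycoproteins, by 0.73 (SE 0.14) and the chaperone gene Hyou1 by 0.50 (SE 0.10), while the sensor Atf6 fell by 0.62 (SE 0.12). The call of Pdia6 held whichever library was left out. That of Edem1 ended without WT 6, that of Atf6 without WT 6 or WT 7, and that of Hyou1 without KO 2, WT 6 or WT 7. The 7 that rose became 3 without KO 2 and 2 without WT 6 or WT 7, and the 2 that fell became 4 without WT 3, 1 without KO 1 or KO 2 and 0 without WT 6 or WT 7.

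**Figure D4:**
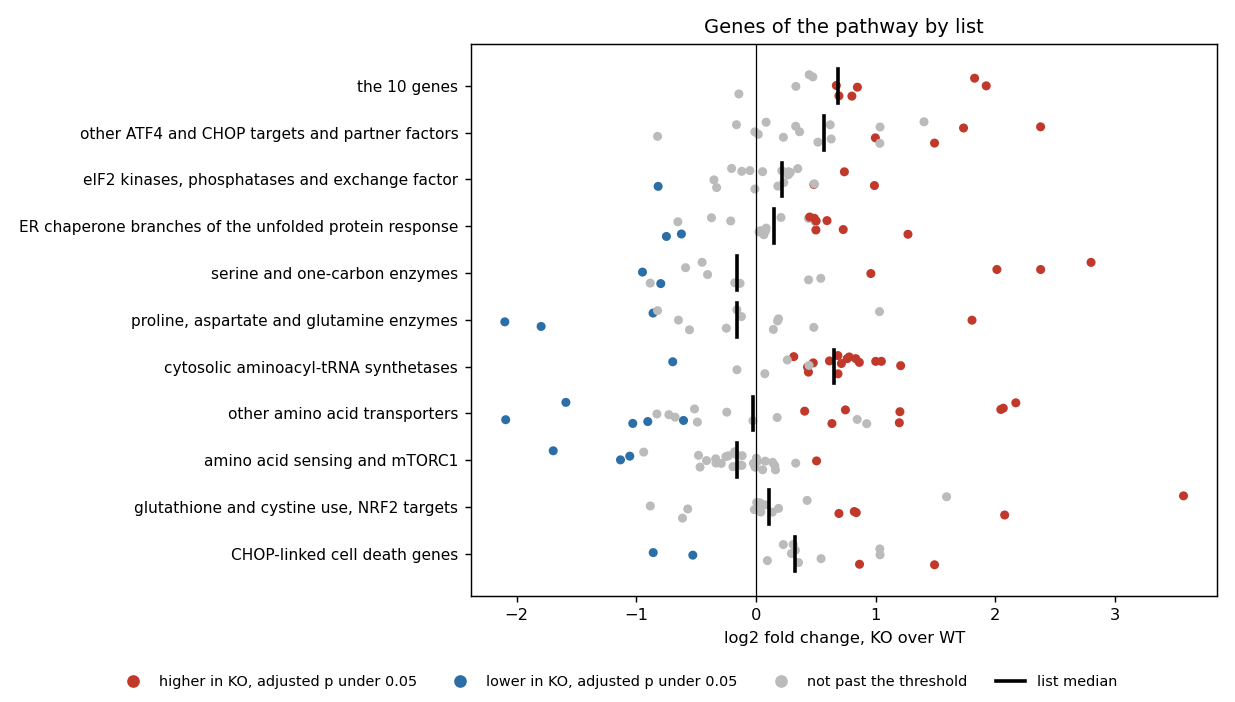
Log2 fold change of KO over WT (horizontal axis) for each tested gene of the 10 genes and of 10 pathway lists (rows), red where higher in KO, blue where lower, grey where the adjusted p was not under 0.05, with the list median as a bar. The 10 genes and the aminoacyl-tRNA synthetases have medians of 0.68 and 0.65, and the lists of transporters, one-carbon enzymes and glutamine enzymes spread widely to both sides of 0.

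Aminoacyl-tRNA synthetases load amino acids onto tRNA, and many of them are known ATF4 targets. Of 20 cytosolic aminoacyl-tRNA synthetase genes 15 rose and 1, Dars, fell, with a median of 0.65, and 11 to 14 rose when 1 library was left out. Gars was at 218 ± 15.8 CPM in KO and 106 ± 9.95 CPM in WT (SD, n = 3 each; log2 fold change 1.05, SE 0.11). Aars rose by 0.86 (SE 0.10) and Vars by 1.001 (SE 0.13), and Mars, which shares its end with Ddit3, by 0.78 (SE 0.11). The calls of these 4 held whichever library was left out, and that of Dars (-0.70, SE 0.18), named after its value was seen, held only without WT 3.

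Of 14 serine and one-carbon enzyme genes 4 rose and 2 fell, with a median of -0.16. The genes that rose encode folate enzymes, with Mthfd2 at 64.0 ± 16.7 CPM in KO and 9.19 ± 3.90 CPM in WT (SD, n = 3 each; log2 fold change 2.80, SE 0.33), Mthfd1l at 2.01 (SE 0.21), Shmt2 at 0.96 (SE 0.15) and Shmt1 at 2.38 (SE 0.14). All 4 calls held whichever library was left out. The span of Shmt1 overlaps Smcr8 on the opposite strand by 184 bases, and the reads they share were not measured. Phgdh and Amt fell, Phgdh being the first enzyme of serine synthesis and singled out with Amt after their values were seen (-0.80, SE 0.19, and -0.95, SE 0.18). The call of Amt held whichever library was left out, and that of Phgdh ended without KO 1, KO 3, WT 6 or WT 7. The 2 that fell became 5 without WT 3, 3 without KO 2, and 1 without KO 1, KO 3, WT 6 or WT 7.

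Of 15 tested genes of proline, aspartate and glutamine enzymes 1 rose and 3 fell, with a median of -0.16. Got1, the cytosolic aspartate aminotransferase, rose by 1.81 (SE 0.19). Asrgl1, which splits asparagine, fell by 2.10 (SE 0.34), and glutamine synthetase (Glul) had 301, 328 and 280 CPM in KO 1, KO 2 and KO 3, against 491, 1186 and 1482 CPM in WT 3, WT 6 and WT 7. Glul is known as an astrocyte gene, and its log2 fold change was -1.80 (SE 0.38). The calls of Got1 and Asrgl1 held whichever library was left out, that of Glul ended without KO 1, KO 2 or WT 6, and Oat (-0.86, SE 0.23), whose span overlaps that of Fgfr2 on the same strand, kept its call only without WT 3. The 3 that fell became 1 without KO 1, KO 2 or WT 6, and the 1 that rose became 3 without WT 3.

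Other amino acid transporters moved in both directions. Of 23 tested genes 8 rose and 5 fell, with a median of -0.026. Slc7a1, a carrier of arginine and lysine, was at 164 ± 24.5 CPM in KO and 39.7 ± 8.38 CPM in WT (SD, n = 3 each; log2 fold change 2.05, SE 0.19). The glutamate transporter gene Slc1a1 fell by 1.59 (SE 0.22), and the lysosomal carriers Slc38a9 and Slc38a7 by 0.90 (SE 0.14) and 0.61 (SE 0.11). These 4 calls held whichever library was left out. The 8 that rose became 4 without KO 1, 2 without KO 2, 1 without WT 6 and 3 without WT 7, and the 5 that fell became 3 without KO 1, KO 2, WT 6 or WT 7.

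Beside the rise of Sesn2 its relatives fell. Of 30 genes of amino acid sensing and mTORC1, a list that holds the other sestrins, 1 rose and 3 fell, with a median of -0.16. Sesn3 was at 147 ± 13.1 CPM in KO and 475 ± 145 CPM in WT (SD, n = 3 each; log2 fold change -1.69, SE 0.24), Sesn1 fell by 1.05 (SE 0.15), and Flcn, which encodes the Rag GTPase regulator folliculin, by 1.13 (SE 0.14). These 3 calls held whichever library was left out, and that of Seh1l (0.51, SE 0.11), of the GATOR2 complex, ended without KO 2, WT 6 or WT 7. The count that fell was 8 without WT 3.

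Of 18 genes of glutathione, cystine and NRF2 5 rose and none fell, with a median of 0.11. Cth, which makes cysteine from cystathionine, was at 5.75 ± 2.50 CPM in KO and 1.36 ± 0.155 CPM in WT (SD, n = 3 each; log2 fold change 2.08, SE 0.38), and its call held whichever library was left out. Gsr, glutathione reductase, rose by 0.84 (SE 0.17) and Txnrd1, thioredoxin reductase, by 0.69 (SE 0.15). Anpep had 5.13, 0.648 and 0.615 CPM in KO 1, KO 2 and KO 3, against 0.280, 0.1004 and 0.142 CPM in WT 3, WT 6 and WT 7, which is near the level of 3 reads, and its log2 fold change of 3.57 was 1.87 without KO 1. The call of Gsr ended without WT 6, that of Txnrd1 without KO 1, KO 2, WT 6 or WT 7 and that of Anpep without KO 1, WT 6 or WT 7. The 5 that rose became 2 without KO 1 or WT 7, 3 without KO 2 and 1 without WT 6, and 3 genes fell without WT 3.

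Of 13 cell death genes linked to CHOP 2 fell, and Tnfrsf10b, which is also in the list of targets, rose. The BH3-only gene Bcl2l11 fell by 0.86 (SE 0.17) and the initiator caspase gene Casp9 by 0.53 (SE 0.13). The call of Bcl2l11 ended without WT 6 and that of Casp9 without KO 1, KO 2, WT 6 or WT 7. The 2 that fell became 1 without KO 1, KO 2 or WT 7 and 0 without WT 6.

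The spheres of the groups also differed in markers of cell state and type. All 10 markers of cycling cells rose, with a summed level of 406 to 539 FPKM in KO and 59.3 to 86.1 FPKM in WT, where WT 3 was highest. Of 10 astrocyte markers 8 fell and none rose, at 135 to 194 FPKM in KO and 558 to 1596 FPKM in WT, where WT 3 was lowest. Of 10 oligodendrocyte lineage markers 6 fell, at 478 to 877 FPKM in KO and 1097 to 1128 FPKM in WT, and of 10 neuronal markers 2 rose, at 749 to 1101 FPKM in KO and 191 to 595 FPKM in WT. The neuronal count was 8 without WT 3 and 0 without any other single library. Of the 10 radial glia markers 1 rose and 5 fell, and the 5 became 3 without KO 1, KO 2, WT 6 or WT 7. Of 8 markers each, 1 endothelial and pericyte marker of 5 tested fell (11 to 13.1 FPKM in KO and 5.65 to 10.9 FPKM in WT, summed over the list), 1 fibroblast marker of 7 tested rose (2 without KO 2 and 0 without any 1 of the WT libraries), and none of 4 tested microglia markers passed. No marker of any list was at 0 in all libraries. These lists move with the genes described above, and their part in the values was not tested.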

How the data were processed

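The deposited table gave whole-number read counts for each gene and library, not normalised by the authors, and FPKM values that the authors made from these counts, gene length and library total. Per the submitters' processing notes the build was mm10 and the tools were featureCounts 1.5.0-p3, HISAT2 2.0.5 and DESeq2 1.16.1, with no settings or annotation given in the sources used here. The header repeats its names over the FPKM columns, and all but 4 of 327192 FPKM values gave back the count within 0.05 reads. None of those 4 belongs to the 10 genes.

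All 6 libraries were fitted without covariates with edgeR 4.0.16 in R 4.3.3 (TMM, filterByExpr, quasi-likelihood F test, two-sided). Benjamini-Hochberg adjustment ran over all 16606 tested genes, with a threshold of 0.05. CPM is TMM-normalised. The SE is the absolute log2 fold change divided by the square root of F. The procedure was tested on simulated data. Spearman's rho between libraries of 1 group, across genes, was 0.965 to 0.992, and every pair of libraries differed by more than sampling noise.

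The 10 genes, the 10 pathway lists and the 8 marker lists were chosen with earlier results of these data known, so lists are described by counts and medians, with no test. From each pathway list the 4 tested genes with the lowest p were named, with the 5 genes most like Atf4. From the list of cell death genes 1 result is not reported here. Alternatives were RLE size factors, library totals, no filter, 1 CPM in 3 libraries, DESeq2 1.42.0, limma 3.58.1 (voom with quality weights, and log2(FPKM + 1) and log2(FPKM + 0.1) at a mean FPKM of at least 0.5), and leaving out each library.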

Additional observations from a re-analysis of the deposited data

How the results depend on the processing

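Of the 10 genes, 6 passed with RLE size factors, without a filter, with 1 CPM in 3 libraries and with DESeq2, and 7 with library totals only, limma-voom and both FPKM scales, the added gene being Slc3a2. With 1 library left out the count ran from 3 to 7, and that of all genes called from 2178 to 6641, against 4812 with all libraries. With limma-voom 8052 genes passed. Direction turned for Ddit3 without KO 1 and for Trib3 without KO 3, neither called in any fit: with 1 library left out Ddit3 ran from -0.46 to 0.091 and Trib3 from -0.22 to 0.89, and the cause was not tested. No other gene of the 10 changed direction. No paired analysis was possible because the groups share only the number 3. The differences of Slc3a2, Slc7a11 and Trib3, with SEs of 0.16, 0.34 and 0.65, did not pass in edgeR with all libraries. Some genes with log2 fold changes of similar size and a smaller SE did pass, such as Eprs (0.44, SE 0.12). Behind Chac1 stand 45 to 468 reads a library.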
